A study of Xenopus laevis with 24 samples.

Results

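Enzymes that write and erase methyl groups on histones and DNA, and enzymes that remove acetyl groups from histones, were followed through gastrulation and neurulation in tissue explants of *Xenopus laevis* embryos. Members were picked by symbol, under a rule written with earlier results of these data known. The set holds every gene model whose symbol begins with kdm, kmt, setd, ezh, suz12, eed, hdac, dnmt, tet (numbered), prmt or dot1l, which gave 74 of the 31694 gene models counted. These models carry 53 distinct names. *X. laevis* is an allotetraploid frog whose genome keeps many genes as an L copy and an S copy, from its long and short chromosome sets. Of the 74 models 41 are L copies and 33 are S copies, and 21 genes are present as both.

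The study sequenced RNA from dorsal marginal zone (DMZ) explants, the Keller explants in which organizer mesoderm and neural tissue converge and extend in a dish. Explants were cut at stage 10.5 from embryos reared at 16 °C, cultured in Steinberg's solution, and taken in lots of 5 or 6 at 10 time points. These were set by sibling embryos, at stages 11, 11.5, 12 and 12.5 of gastrulation and then at every whole stage between 13 and 18. For comparison at stage 11 there were ventral marginal zone (VMZ) explants, 5 per lot and also cut at stage 10.5, and animal caps (Cap), 20 per lot and cut at stage 8. Each of the 12 groups has 2 libraries, which gives 24 libraries. The labels name no genotype, strain or treatment of any group beyond dissection and culture, and each library pools the explants of its lot. The labels do not say whether the replicates came from separate matings, so the spread behind every p-value may be technical.

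Methyl groups on histone lysines are placed by methyltransferases of the SET family (most kmt2 and setd1 enzymes on H3K4, ezh enzymes on H3K27, setdb enzymes on H3K9, kmt5 enzymes on H4K20) and by DOT1L, which acts on H3K79. They are removed by the KDM demethylases. PRMT enzymes methylate arginines, HDAC enzymes remove acetyl groups, DNMT1 copies DNA methylation onto the new strand after replication, and TET enzymes oxidize methylcytosine. In the frog, the oocyte supplies many of these messages to the early embryo, and the embryo's own genome takes over transcription at the midblastula transition, before the earliest stage sampled here. Polycomb repression by EZH2 and its opposition by H3K27 demethylases and H3K4 methyltransferases are known for their part in keeping and switching developmental genes.

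Sequencing depth was 7.38 M counts in stage 11 DMZ replicate 2 and 14.6 M in stage 17 DMZ replicate 1, and 21.9 to 39.8 M in the other 22 libraries. Levels below are CPM, counts divided by the library size in M after scaling by the trimmed mean of M-values, and pairs of values are replicate 1 and then replicate 2. CPM is not corrected for transcript length, so levels are compared between samples and not between genes. All 74 members passed the filter on low counts, as did 31349 of all models. The marginal zone label was checked on a list of organizer genes (chrd, gsc, nog, not, otx2, foxa4, lhx1). Their summed level was 1085 to 1705 CPM in stage 11 DMZ explants, 151 to 190 CPM in VMZ explants and 54.4 to 90.5 CPM in caps, and 10 of the list's 13 models were higher in DMZ than in VMZ explants. A list of ventral marginal zone genes (ventx genes, szl, wnt8a and bambi) did not single out the VMZ explants. It summed to 346 to 489 CPM in stage 11 DMZ explants, 710 to 1153 CPM in VMZ explants and 1393 to 1443 CPM in caps. Only 2 of its 13 models were lower in DMZ than in VMZ explants. Marker levels also changed with stage. The organizer list summed to 864 to 933 CPM in stage 18 DMZ explants and to 1085 to 1705 CPM in stage 11 DMZ explants (7 of 13 models lower, 2 higher), and notochord markers to 554 to 656 CPM at stage 18 and 736 to 933 CPM at stage 11 (4 of 8 lower, 3 higher). Muscle markers summed to 747 to 791 CPM in stage 18 DMZ explants and to 27.6 to 50.3 CPM in stage 11 DMZ explants (5 of 7 models higher), with mean actc1.L at 241 and 0.0678 CPM. Cement gland markers summed to 1170 to 1480 CPM at stage 18 and 1.41 to 11.3 CPM at stage 11 (4 of 4 higher), and neural markers to 1238 to 1510 CPM at stage 18 and 991 to 1153 CPM at stage 11 (7 of 13 higher). Maternal transcripts summed to 46.2 to 72.0 CPM at stage 18 and 309 to 406 CPM at stage 11 (13 of 21 lower), and S phase genes to 2748 to 2886 CPM and 4652 to 4830 CPM (11 of 30 lower, 4 higher). The part of these shifts in the changes of the enzymes was not tested, and in bulk tissue fewer cells of a type and less RNA per cell cannot be told apart.

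Between stage 18 and stage 11 the enzymes split. All 4 TET models, the H3K27 demethylase kdm6b.S, both kdm7a copies, both kmt2c copies and both prmt5 copies rose, while the H4K20 methyltransferase kmt5a fell in both copies together with hdac8.L, ezh2.S and setdb1.S. Of the 74 members, 23 were higher and 13 lower at stage 18 than at stage 11 by edgeR's quasi-likelihood test (Benjamini-Hochberg adjusted p under 0.05 over all models tested). These 36 calls are 48.6% of the members, against 40.4% of all models tested, and the members called higher are 31.1% against 20.9% of all models. The members called lower are 17.6%, against 19.6% of all models. The family counts below stand against these shares of all models, 20.9% higher and 19.6% lower. The median log2 fold change was 0.24 over the members and 0.016 over all models. The 36 calls became 23 without stage 18 DMZ replicate 2, and 16 of them held whichever single library was left out. The share of all models called with a library left out was not taken, so the counts from those fits have no background. With the replicate number as a block 48 members were called, against 50.7% of all models, and with DESeq2 40, against 42.6%.

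**Figure D1:**
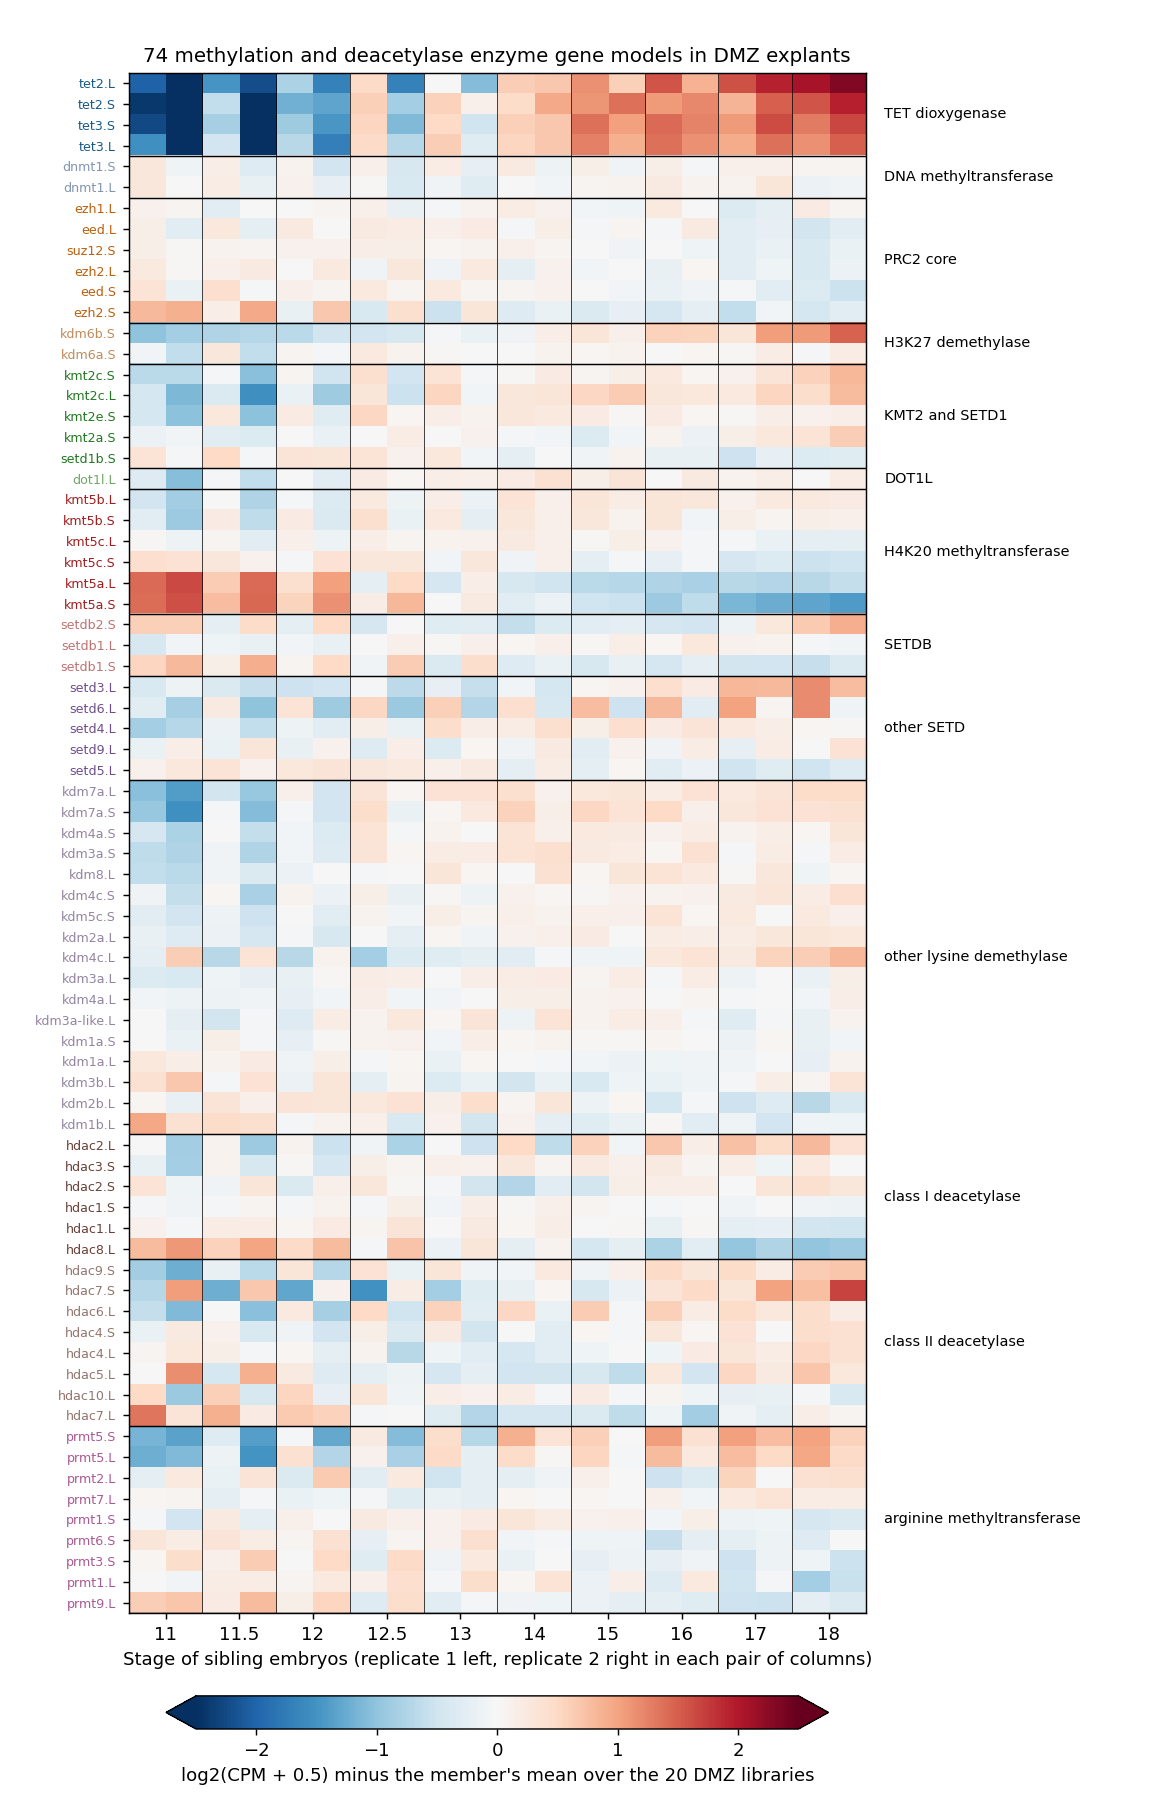
Heat map of the 74 members (rows, grouped by enzyme family and coloured by family on the axis) in the 20 DMZ libraries (columns, stages 11 to 18). Colour is log2(CPM + 0.5) minus the member's own mean over those libraries, red above and blue below. The TET rows turn from blue to red with stage, the kmt5a and hdac8 rows from red to blue, and most rows of the Polycomb and DNA methyltransferase families stay pale.

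The TET dioxygenases, which oxidize 5-methylcytosine and so open the way to its removal, gave the 4 largest rises of the set. tet3.S had 99.8 and 129 CPM in stage 18 DMZ explants, against 7.97 and 3.97 CPM in stage 11 DMZ explants, a log2 fold change of 4.21 ± 0.65 (SE, n = 2 per group, edgeR adjusted p = 0.000133). tet3.L had 81.8 and 104 CPM at stage 18 and 12.3 and 3.46 CPM at stage 11 (log2 3.48 ± 0.78, adjusted p = 0.0023). Both copies were therefore above 80 CPM in each stage 18 library and under 13 CPM in each stage 11 library. tet2.S had 24.1 and 31.2 CPM at stage 18, against 1.05 and 0 CPM at stage 11 (log2 5.31 ± 0.92, adjusted p = 0.000343). tet2.L had 15.0 and 17.8 CPM at stage 18, against 0.407 and 0 CPM at stage 11 (log2 5.83 ± 0.95, adjusted p = 0.000216). tet2 was thus close to undetected at stage 11: the counts behind these values were 31 and 0 for tet2.S and 12 and 0 for tet2.L, the zeros coming from the shallowest library. Without stage 11 replicate 1 the fold changes of tet3.L and tet3.S became 4.75 and 4.85 on the log2 scale. No tet2 fold can be set against replicate 2 alone, and without replicate 2 that of tet2.S was 4.71. All 4 calls held without any single library.

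DNMT1, the methyltransferase that copies DNA methylation at replication forks, did not pass the test in either copy. dnmt1.L had 51.5 and 54.1 CPM at stage 18 and 69.8 and 56.6 CPM at stage 11, a log2 fold change of -0.26 (95% interval -0.70 to 0.18, adjusted p = 0.335). dnmt1.S had 76.8 and 76.7 CPM at stage 18 and 88.6 and 67.8 CPM at stage 11, a log2 fold change of -0.03 (interval -0.54 to 0.48, adjusted p = 0.937). The L libraries of the 2 stages did not overlap and the S libraries did, and neither interval reaches a change of 1 log2 unit. Over the whole course the group means of dnmt1.L ran from 50.3 CPM at stage 13 to 66.0 CPM at stage 17. In the same comparison uhrf1.S, the partner that brings DNMT1 to hemimethylated DNA, averaged 80.8 CPM at stage 18 and 232 CPM at stage 11 (log2 -1.52 ± 0.18, adjusted p = 1.33e-05). tdg.S, the glycosylase that excises the products of TET oxidation, averaged 548 CPM at stage 18 and 116 CPM at stage 11 (log2 2.24 ± 0.34, adjusted p = 0.000133). uhrf1.S and tdg.S were picked from a list of 20 models, in which they had the smallest adjusted p-values. Of that list 5 models were higher and 7 lower, with a median log2 fold change of 0.05.

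The core of Polycomb repressive complex 2, which methylates H3K27, had a median log2 fold change of -0.39. Its largest fall was in the S copy of its catalytic subunit ezh2. Of its 6 models 2 were called lower and none higher. ezh2.S had 15.6 and 17.7 CPM at stage 18, against 38.0 and 39.8 CPM at stage 11 (log2 -1.23 ± 0.35, adjusted p = 0.0107). The L copy, ezh2.L, had 181 and 213 CPM at stage 18 and 281 and 243 CPM at stage 11, a log2 fold change of -0.41 with an interval of -0.76 to -0.07 and an adjusted p of 0.0538. suz12.S, the scaffold subunit, fell by 0.37 ± 0.12 on the log2 scale, with 148 and 172 CPM at stage 18 and 215 and 198 CPM at stage 11 (adjusted p = 0.0178). eed.S, the subunit that reads trimethylated H3K27, had 33.9 and 29.8 CPM at stage 18 and 54.7 and 38.5 CPM at stage 11 (adjusted p = 0.0576). eed.L had 19.7 and 22.3 CPM at stage 18 and 30.4 and 22.7 CPM at stage 11 (adjusted p = 0.185), and ezh1.L stayed under 0.33 CPM in both stages. With the replicate block ezh2.L (adjusted p = 0.0119) and eed.S (0.0108) were also lower. The call of ezh2.S was lost without stage 18 replicate 1 (adjusted p = 0.0733), and that of suz12.S without stage 11 replicate 1 (0.104) or stage 18 replicate 1 (0.175).

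On the other side of the H3K27 mark, the demethylase kdm6b.S rose by 2.28 ± 0.26 on the log2 scale (adjusted p = 1.21e-05), the smallest adjusted p among the members called higher. It had 37.2 and 49.5 CPM in stage 18 DMZ explants, against 8.48 and 9.47 CPM in stage 11 DMZ explants, and its group means climbed at every step, through 11.8 CPM at stage 12, 18.1 CPM at stage 14 and 26.2 CPM at stage 16. Its homologue kdm6a.S, an H3K27 demethylase as well, had 45.9 and 53.8 CPM at stage 18 and 45.4 and 31.0 CPM at stage 11. Its log2 fold change of 0.38 (interval -0.17 to 0.93) did not pass the test (adjusted p = 0.259).

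In the KMT2 and SETD1 group, named for H3K4 methyltransferases, 3 of 5 models rose. kmt2c.S, a catalytic subunit of an enhancer-directed complex, had 70.0 and 83.7 CPM at stage 18 and 28.9 and 29.2 CPM at stage 11 (log2 1.40 ± 0.35, adjusted p = 0.00452). kmt2c.L had 77.0 and 98.3 CPM at stage 18 and 41.3 and 25.6 CPM at stage 11 (log2 1.38 ± 0.39, adjusted p = 0.0104). The 2 copies thus rose by nearly the same amount. kmt2a.S, the frog counterpart of the trithorax-related regulator of Hox genes, rose less, with 17.8 and 21.7 CPM at stage 18 and 12.5 and 13.3 CPM at stage 11 (log2 0.61 ± 0.17, adjusted p = 0.0108). kmt2e.S, whose mammalian counterpart lacks clear H3K4 methyltransferase activity, had 46.2 and 48.6 CPM at stage 18 and 31.7 and 21.0 CPM at stage 11 (adjusted p = 0.0863). setd1b.S had 39.8 and 41.2 CPM at stage 18 and 64.8 and 49.4 CPM at stage 11 (adjusted p = 0.0638). With the replicate block kmt2e.S was called higher (adjusted p = 0.0147) and setd1b.S lower (0.0390). The call of kmt2c.L was lost without stage 11 replicate 2 (0.0974) or stage 18 replicate 2 (0.0668), and that of kmt2a.S without stage 11 replicate 1 (0.0656) or stage 18 replicate 2 (0.112).

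DOT1L, the methyltransferase of H3K79, was represented by dot1l.L. It had 120 and 136 CPM at stage 18, against 96.3 and 57.0 CPM at stage 11 (log2 0.74 ± 0.26, adjusted p = 0.0324). The call was lost under upper quartile scaling (adjusted p = 0.0525) and without stage 11 replicate 2 (0.268), stage 18 replicate 1 (0.0622) or stage 18 replicate 2 (0.143).

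The H4K20 methyltransferases held the largest falls. KMT5A places the single methyl group on H4K20 and is known for its cell cycle-dependent level. kmt5a.S had 73.4 and 68.7 CPM in stage 18 DMZ explants, against 483 and 559 CPM in stage 11 DMZ explants, a log2 fold change of -2.87 ± 0.24 (adjusted p = 1.02e-06). kmt5a.L had 20.7 and 22.2 CPM at stage 18, against 90.6 and 106 CPM at stage 11 (log2 -2.20 ± 0.30, adjusted p = 4.67e-05). No stage 18 library came near a stage 11 library in either copy. KMT5B and KMT5C, which add further methyl groups to the same lysine, did not move together. kmt5c.S fell, with 58.6 and 60.04 CPM at stage 18 and 115 and 109 CPM at stage 11 (log2 -0.91 ± 0.15, adjusted p = 0.000248). kmt5c.L had 51.8 and 50.9 CPM at stage 18 and 62.3 and 55.6 CPM at stage 11 (interval -0.58 to 0.19 log2, adjusted p = 0.405). kmt5b.L rose, with 24.2 and 23.5 CPM at stage 18 and 14.6 and 11.0 CPM at stage 11 (log2 0.89 ± 0.33, adjusted p = 0.0439). kmt5b.S had 31.1 and 30.5 CPM at stage 18 and 23.1 and 14.7 CPM at stage 11 (adjusted p = 0.136), and was called higher with the replicate block (0.00668). The kmt5b.L call was lost under upper quartile scaling (0.0657) and in 11 of the 24 fits that left out a library, with adjusted p up to 0.209. Summed S phase and maternal genes, given above, fell over the same interval, though 4 of 30 S phase models were higher and 11 lower. Their part in the changes of these methyltransferases was not tested.

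SETDB1 methylates H3K9 and is known for silencing transposons. Its S copy fell and its L copy did not pass the test. setdb1.S had 44.2 and 51.5 CPM at stage 18 and 96.4 and 117 CPM at stage 11 (log2 -1.16 ± 0.29, adjusted p = 0.00492), while setdb1.L had 136 and 133 CPM at stage 18 and 106 and 133 CPM at stage 11 (log2 0.17, interval -0.11 to 0.45, adjusted p = 0.327). The related setdb2.S was scarce, at 1.75 and 2.17 CPM at stage 18, 0.439 and 0.622 CPM at stage 14 and 1.66 and 1.66 CPM at stage 11. It was named after its values were seen, because it was the only member called lower at stage 14 than at stage 11 (log2 -1.63 ± 0.45, adjusted p = 0.0157) and then higher at stage 18 than at stage 14 (log2 1.87 ± 0.44, adjusted p = 0.0183). Leaving out stage 11 replicate 1 (adjusted p = 0.0569), stage 11 replicate 2 (0.0538) or stage 14 replicate 1 (0.115) ended the first of these calls. Any of the 4 stage 14 and stage 18 libraries ended the other (0.0524 to 0.128).

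Of the other SETD enzymes, 2 of 5 rose and 1 fell. setd3.L, whose mammalian counterpart methylates a histidine of actin, had 16.9 and 12.5 CPM at stage 18, against 5.36 and 6.53 CPM at stage 11 (log2 1.31 ± 0.26, adjusted p = 0.000986). setd4.L had 14.5 and 14.2 CPM at stage 18 and 7.53 and 8.32 CPM at stage 11 (log2 0.86 ± 0.32, adjusted p = 0.0412). setd5.L fell, with 70.4 and 79.9 CPM at stage 18 and 108 and 119 CPM at stage 11 (log2 -0.59 ± 0.15, adjusted p = 0.00528). setd6.L had 84.5 and 34.4 CPM at stage 18 and 30.6 and 20.6 CPM at stage 11, so that its replicates differed more than most members, and it did not pass the test (adjusted p = 0.189) except with the replicate block (0.000165). setd9.L had 6.88 and 9.05 CPM at stage 18 and 6.10 and 7.81 CPM at stage 11 (adjusted p = 0.637). The setd4.L call was lost in 7 of the 24 fits that left out a library (adjusted p up to 0.164), and the setd5.L call without stage 18 replicate 1 (0.0586).

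Of the other lysine demethylases 7 of 17 models were higher and 2 lower at stage 18. The KDM7A demethylase acts on H3K9 and H3K27, and both its copies rose. kdm7a.L had 29.6 and 29.8 CPM at stage 18 and 10.1 and 7.81 CPM at stage 11 (log2 1.72 ± 0.24, adjusted p = 5.93e-05). kdm7a.S had 25.6 and 26.0 CPM at stage 18 and 10 and 6.53 CPM at stage 11 (log2 1.62 ± 0.35, adjusted p = 0.00198). In all 4 stage 18 values kdm7a was above 25 CPM and in all 4 stage 11 values at or under 10.1 CPM. kdm3a.S, an H3K9 demethylase, had 254 and 301 CPM at stage 18 and 170 and 156 CPM at stage 11 (log2 0.77 ± 0.20, adjusted p = 0.00571). kdm4a.S, which acts on H3K9 and H3K36, had 69.2 and 82.2 CPM at stage 18 and 49.9 and 38.7 CPM at stage 11 (log2 0.77 ± 0.20, adjusted p = 0.0064). kdm8.L, kdm5c.S and kdm2a.L rose by 0.66, 0.57 and 0.54 on the log2 scale (adjusted p = 0.0204, 0.0264 and 0.0185). Calls ended without stage 18 replicate 2 for kdm3a.S (adjusted p = 0.0561), and without that library or stage 11 replicate 2 for kdm4a.S (0.0609 and 0.0778). Those of kdm8.L, kdm5c.S and kdm2a.L each ended without any of 3 libraries (0.0607 to 0.165).

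The demethylases that fell were kdm1b.L and kdm2b.L. kdm1b.L, an H3K4 demethylase known in mouse for setting imprints in oocytes, had 4.99 and 4.96 CPM at stage 18 and 10.9 and 7.17 CPM at stage 11 (log2 -0.87 ± 0.30, adjusted p = 0.0292). kdm2b.L, which brings a Polycomb complex to unmethylated CpG islands, had 65.8 and 81.4 CPM at stage 18 and 111 and 93.1 CPM at stage 11 (log2 -0.47 ± 0.17, adjusted p = 0.0357). LSD1, the founding histone demethylase, is represented by kdm1a. kdm1a.S had 173 and 189 CPM at stage 18 and 199 and 177 CPM at stage 11, a log2 fold change of -0.05 with an interval of -0.32 to 0.21 (adjusted p = 0.759). kdm1a.L had 100.1 and 122.7 CPM at stage 18 and 138 and 130 CPM at stage 11 (log2 -0.27, adjusted p = 0.103). The remaining models, kdm3a.L, kdm3a-like.L, kdm3b.L, kdm4a.L, kdm4c.L and kdm4c.S, had log2 fold changes from -0.32 to 0.64 and did not pass the test. With the replicate block kdm3a.L was called higher (0.0189) and kdm1a.L (0.0455) and kdm3b.L (0.0480) lower. The kdm1b.L call was lost without stage 11 replicate 1 (0.273), stage 18 replicate 1 (0.108) or stage 18 replicate 2 (0.112). The kdm2b.L call was lost in 8 of the 24 fits that left out a library, with adjusted p up to 0.254.

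Of the 6 class I deacetylase models 2 fell. In this class HDAC1, HDAC2 and HDAC3 work in large corepressor complexes, whereas HDAC8 acts outside them. hdac8.L had 9.24 and 9.90 CPM in stage 18 DMZ explants, against 33.0 and 40.5 CPM in stage 11 DMZ explants (log2 -1.94 ± 0.27, adjusted p = 6.52e-05). HDAC8 is known for removing acetyl groups from cohesin. hdac1.L had 433 and 420 CPM at stage 18 and 639 and 584 CPM at stage 11 (log2 -0.52 ± 0.12, adjusted p = 0.00271), whereas hdac1.S had 355 and 347 CPM at stage 18 and 365 and 354 CPM at stage 11 (log2 -0.03, interval -0.29 to 0.22, adjusted p = 0.85). hdac2.L had 7.70 and 5.46 CPM at stage 18 and 4.17 and 2.05 CPM at stage 11 (adjusted p = 0.158), and hdac2.S had 1.11 and 0.987 CPM at stage 18 and 1.05 and 0.640 CPM at stage 11 (adjusted p = 0.731). hdac3.S had 35.4 and 30.1 CPM at stage 18 and 26.5 and 16.5 CPM at stage 11 (adjusted p = 0.0525). hdac2.L and hdac3.S were called higher with the replicate block (0.00336 and 0.00514). The calls of hdac8.L and hdac1.L held without any single library.

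Class II deacetylases, several of which shuttle between nucleus and cytoplasm, had 2 of 8 models higher and none lower at stage 18. The higher share was 25%, near the 20.9% of all models, while 19.6% of all models were lower. hdac9.S had 6.85 and 7.21 CPM at stage 18 and 2.102 and 1.54 CPM at stage 11 (log2 1.92 ± 0.69, adjusted p = 0.0358). hdac6.L, known as the deacetylase of tubulin, had 112 and 95.02 CPM at stage 18 and 54.6 and 38.3 CPM at stage 11 (log2 1.154 ± 0.432, adjusted p = 0.0434). hdac7.L had its lower values in between, with 40.1 and 37.5 CPM at stage 18, 26.6 and 26.3 CPM at stage 14 and 91.2 and 44.6 CPM at stage 11. It was lower at stage 14 than at stage 11 (log2 -1.36 ± 0.38, adjusted p = 0.0158) but not at stage 18 (log2 -0.81, interval -1.61 to -0.02, adjusted p = 0.0948; 0.0219 with the replicate block). hdac4.L had 7.84 and 7.18 CPM at stage 18 and 5.63 and 6.53 CPM at stage 11 (log2 0.31, adjusted p = 0.536), and hdac4.S 13.9 and 13.4 CPM at stage 18 and 8.99 and 11.9 CPM at stage 11 (log2 0.39, adjusted p = 0.388). hdac5.L, hdac7.S and hdac10.L had intervals that span more than 2 log2 units and did not pass the test. Dropping any of the 4 libraries of the contrast ended the hdac9.S call (adjusted p = 0.0838 to 0.16), and 10 of the 24 fits that left out a library ended that of hdac6.L (up to 0.224). Upper quartile scaling ended that of hdac6.L too (0.0593). The stage 14 fall of hdac7.L was -0.75 without stage 11 replicate 1 (adjusted p = 0.2), and also ended without stage 14 replicate 1 (0.0836) or 2 (0.0832).

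Of the 9 arginine methyltransferase models 2 were higher and 2 lower. Each is 22.2%, close to the 20.9% of all models higher and 19.6% lower. PRMT5, the main enzyme of symmetric arginine dimethylation, also acts on splicing proteins. prmt5.L had 27 and 19.2 CPM at stage 18 and 5.53 and 6.02 CPM at stage 11 (log2 2.00 ± 0.51, adjusted p = 0.00522). prmt5.S had 7.90 and 5.79 CPM at stage 18 and 1.39 and 1.152 CPM at stage 11 (log2 2.40 ± 0.65, adjusted p = 0.00837). prmt1.L, a copy of the main asymmetric arginine methyltransferase, had 1679 and 2066 CPM at stage 18 and 3039 and 2891 CPM at stage 11 (log2 -0.66 ± 0.21, adjusted p = 0.0205). prmt1.S had 3061 and 3202 CPM at stage 18 and 3971 and 2940 CPM at stage 11 (log2 -0.14, interval -0.51 to 0.22, adjusted p = 0.541). prmt9.L fell as well, with 8.40 and 7.70 CPM at stage 18 and 15.7 and 16.6 CPM at stage 11 (log2 -1.003 ± 0.271, adjusted p = 0.00795). prmt2.L had 1.195 and 1.206 CPM at stage 18 and 0.610 and 1.024 CPM at stage 11 (adjusted p = 0.367), and prmt6.S 3.00 and 3.89 CPM at stage 18 and 4.92 and 4.48 CPM at stage 11 (adjusted p = 0.229). prmt3.S and prmt7.L did not pass the test either, at log2 -0.57 and 0.12. The prmt5.S call was lost without stage 11 replicate 2 (adjusted p = 0.0559) and that of prmt9.L without stage 18 replicate 2 (0.0594). That of prmt1.L was lost without stage 11 replicate 1 (0.0776), stage 11 replicate 2 (0.0537) or stage 18 replicate 1 (0.156).

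**Figure D2:**
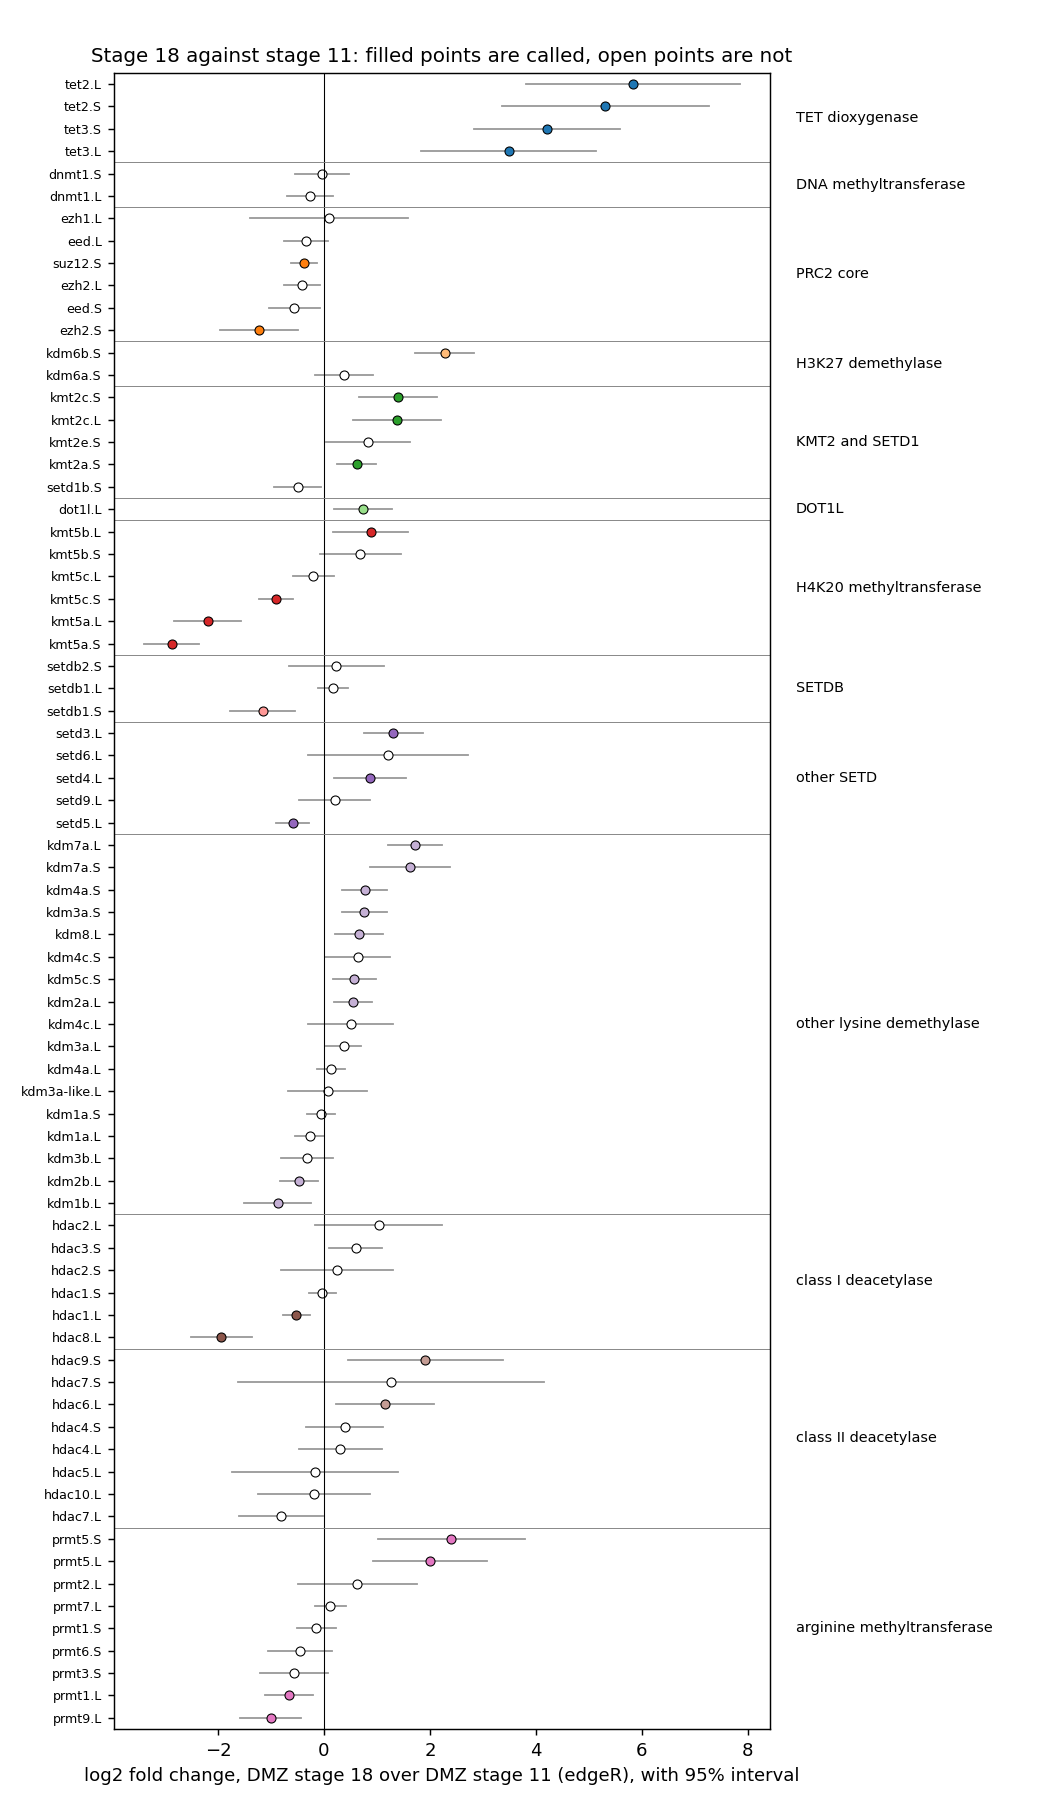
Log2 fold change of each of the 74 members in stage 18 over stage 11 DMZ explants by edgeR, with its 95% interval as a grey line. Filled points passed the test and open points did not, and rows are grouped by enzyme family. The 4 TET models stand farthest right, at log2 3.48 to 5.83, and kmt5a.S farthest left, at -2.87.

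More members were called in the earlier part of the course than in the later part. Between stage 14 and stage 11, 16 members were higher and 9 lower (33.8% of members, against 25.5% of all models tested, with 12.5% of all models higher and 13.0% lower). Between stage 18 and stage 14 only 3 were higher and 7 lower (13.5% of members, against 7.62% of all models, with 3.94% higher and 3.67% lower). Of the 16 higher at stage 14, 14 were also higher at stage 18 than at stage 11, and of the 9 lower, 6 were also lower. The 25 calls at stage 14 became 10 without stage 11 replicate 2, and 13 without either stage 14 library. The 10 later calls became 5 without stage 14 replicate 1, none without stage 14 replicate 2, and 1 without either stage 18 library. Shares of all models in these fits with a library left out were not taken. DESeq2 called 31 of the 74 members between stages 14 and 11, and 32.0% of the models to which it gave an adjusted p. With the replicate block 37 of the 74 members were called between stages 14 and 11, and 37.6% of all models. Between stages 18 and 14 the block called 16 of the 74 and 17.2% of all models. DESeq2 called 12 of the 74 there, and 13.3% of the models to which it gave an adjusted p. In each case the members' share was the larger. With all libraries 22 of the 74 members had an unadjusted p under 0.05 between stages 18 and 14. The share of all models at that threshold was not taken.

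The course of single members differed. tet3.S averaged 5.97 CPM at stage 11, 38.2 CPM at stage 12.5, 62.4 CPM at stage 14, 93.3 CPM at stage 15 and 115 CPM at stage 18, so that its rise was well under way by the end of gastrulation. It was higher at stage 14 than at stage 11 by 3.33 ± 0.63 on the log2 scale (adjusted p = 0.00174), and at stage 18 than at stage 14 by 0.88 ± 0.56 (adjusted p = 0.401). kdm7a.L levelled off even earlier. It averaged 8.96 CPM at stage 11, 27.9 CPM at stage 13 and 29.7 CPM at stage 18, with log2 1.52 ± 0.24 between stages 14 and 11 (adjusted p = 0.000578) and 0.20 ± 0.23 between stages 18 and 14. kdm6b.S rose through both intervals, by 1.01 ± 0.26 between stages 14 and 11 (adjusted p = 0.00948) and by 1.26 ± 0.25 between stages 18 and 14 (adjusted p = 0.00756). It was the only member called higher in both. setd3.L rose late, by 0.02 ± 0.26 and then 1.29 ± 0.26 on the log2 scale (adjusted p = 0.972 and 0.00756).

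Among the falls, kmt5a.S and hdac8.L were the members called lower in both intervals. kmt5a.S fell by 1.72 ± 0.23 between stages 14 and 11 (adjusted p = 0.00025) and by 1.153 ± 0.230 between stages 18 and 14 (adjusted p = 0.00783), while kmt5a.L fell by 2.01 ± 0.30 and then changed by -0.19 ± 0.29 (adjusted p = 0.0004 and 0.768). hdac8.L fell by 1.03 ± 0.27 and 0.91 ± 0.27 (adjusted p = 0.0109 and 0.0487). hdac1.L, kdm2b.L, prmt1.L and kmt5c.S were called lower between stages 18 and 14 and not between stages 14 and 11. Their log2 changes were -0.58, -0.72, -0.89 and -0.54 between stages 18 and 14 (adjusted p = 0.00896, 0.0174, 0.0192 and 0.0398) and 0.06, 0.25, 0.23 and -0.37 between stages 14 and 11. kmt5c.S had 58.6 and 60.04 CPM at stage 18 and 79.9 and 92.7 CPM at stage 14. prmt1.S first rose and then fell, by 0.50 ± 0.17 and -0.64 ± 0.17 (adjusted p = 0.0445 and 0.0343). Without stage 14 replicate 2 no member was called between stages 18 and 14. The adjusted p was then 0.0508 for kdm6b.S, 0.0671 for kmt5a.S, 0.107 for setd3.L, 0.0925 for hdac1.L, 0.158 for kdm2b.L, 0.162 for prmt1.L, 0.114 for prmt1.S, 0.275 for kmt5c.S and 0.295 for hdac8.L, and each of these calls was also lost without at least 1 of the other stage 14 and stage 18 libraries (0.0503 to 0.221). Between stages 14 and 11 the call of kdm6b.S was lost without stage 11 replicate 1 (0.0608) or stage 14 replicate 2 (0.0656). That of hdac8.L was lost without stage 11 replicate 2 (0.08) or stage 14 replicate 1 (0.104), and that of prmt1.S in 10 of the 24 fits that left out a library (up to 0.326).

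Some members were called between stages 14 and 11 and not between stages 18 and 11. kdm3a.L was higher at stage 14, with 131 and 134 CPM, against 90.2 and 88.7 CPM at stage 11 (log2 0.56 ± 0.15, adjusted p = 0.0142). kdm3b.L, another H3K9 demethylase of the same family, was lower, with 26.8 and 32.9 CPM at stage 14 and 48.0 and 58.8 CPM at stage 11 (log2 -0.83 ± 0.24, adjusted p = 0.0176). Leaving out any of the 4 libraries of the contrast ended the kdm3a.L call (adjusted p = 0.0501 to 0.0881), and leaving out stage 11 replicate 2 or stage 14 replicate 1 that of kdm3b.L (0.135 and 0.157). setd4.L, dot1l.L, kdm8.L, kdm4a.S, kdm3a.S, prmt5.L, prmt5.S, kdm7a.S and the TET models were already higher at stage 14. ezh2.S (log2 -1.11), setdb1.S (-0.92) and prmt9.L (-0.78) were already lower. Of these the calls of kdm3a.S, tet2.L, tet2.S and tet3.S held without any single library, and the others were lost in 1 (kdm7a.S and kdm8.L) to 17 (prmt9.L) of the 24 fits that left out a library.

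An F test for any change over the 10 DMZ stages called 26 members (35.1%, against 30.0% of all models tested). The smallest adjusted p-values were 2.12e-06 for kmt5a.S, 3.30e-05 for kmt5a.L, 5.02e-05 for kdm6b.S, 0.000177 for hdac8.L, 0.000423 for setd3.L, 0.000608 for tet2.L, 0.000642 for tet3.S and 0.000792 for kdm7a.L. kmt5c.S (0.00276), kdm2b.L (0.00371), tet2.S (0.00374) and setd5.L (0.00483) followed. Of the 26, 10 had their highest mean at stage 18 and 7 at stage 11, with 9 in between. The peak stages of all models called were not counted, so these counts have no background. With the replicate block 42 of the 74 members were called, a larger share than the 45.6% of all models. DESeq2 called 43 of the 74, a larger share than the 41.5% of all models. The authors' deposited table gives an adjusted p, always under 0.001 and from a comparison it does not name, for some of its models. It gives one for 36 of the 74 members (48.6%, against 43.9% of all models), and all 26 are among these.

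**Figure D3:**
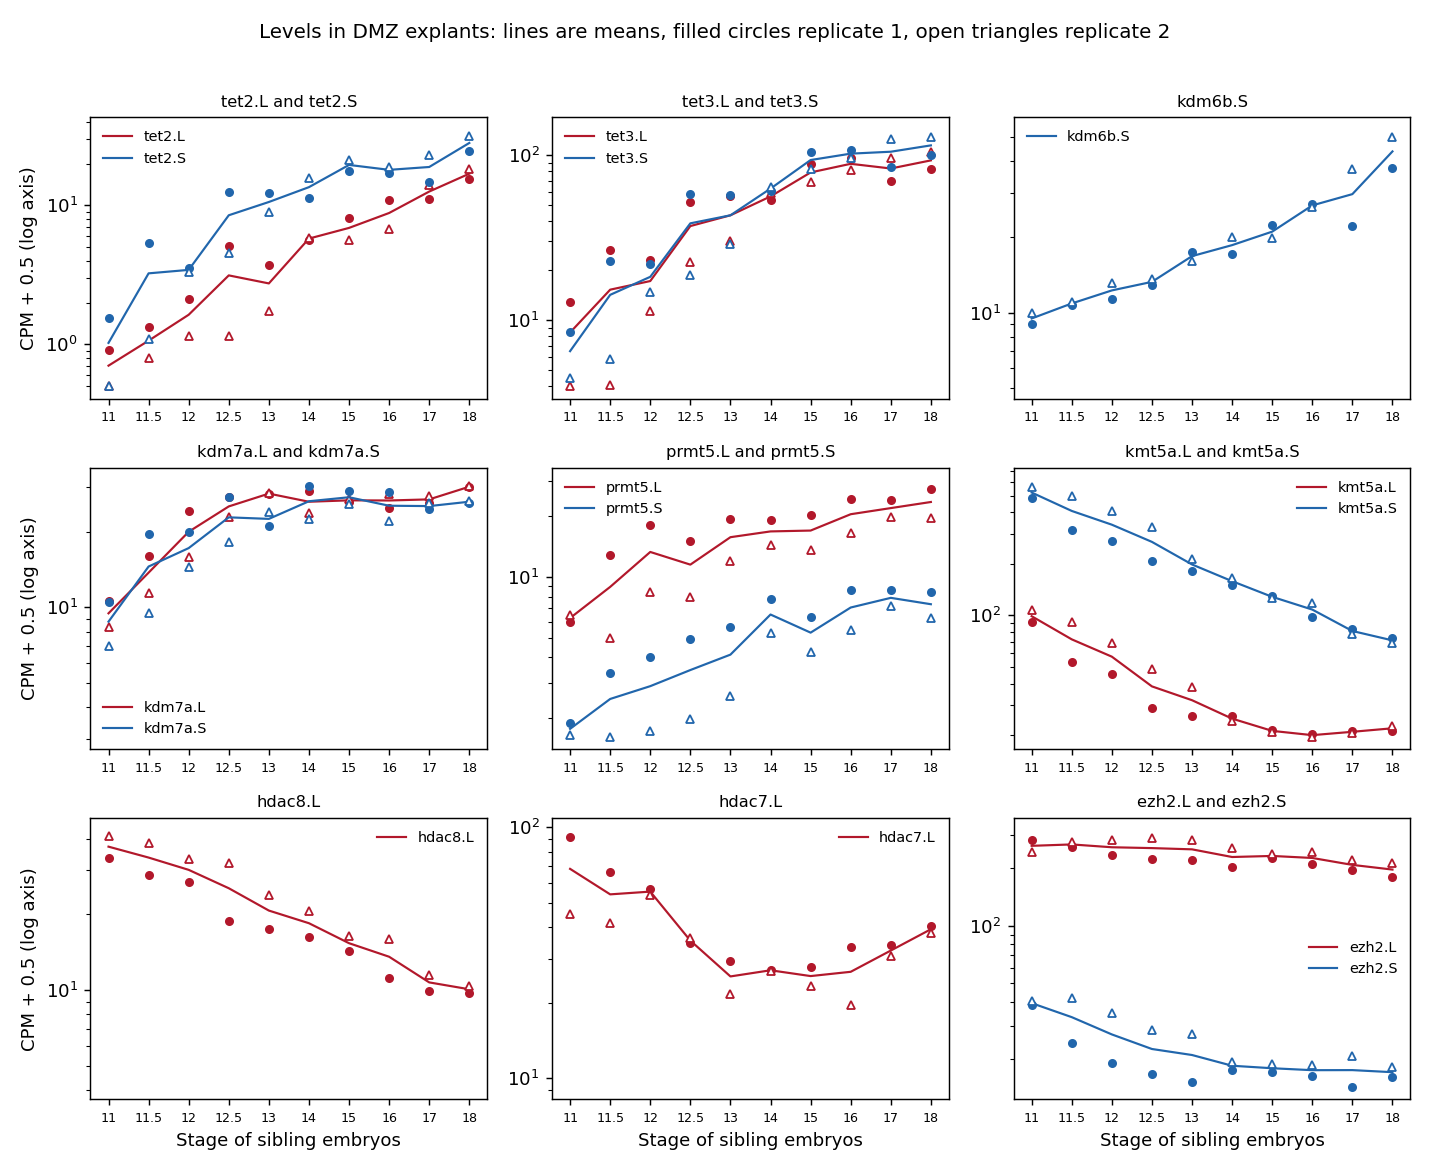
CPM + 0.5 on log axes against stage in DMZ explants for 9 enzymes (red L copies, blue S copies, lines joining group means, filled circles replicate 1 and open triangles replicate 2). tet2, tet3, kdm6b, kdm7a and prmt5 climb, kmt5a and hdac8 descend, and hdac7.L dips around stages 13 to 16. ezh2.L declines less than ezh2.S. In most rising panels the filled circles lie above the open triangles at stages 11.5 to 13.

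The replicates of several members differed at the earlier stages. tet3.S had 22.2 and 5.26 CPM at stage 11.5, 21.3 and 14.3 CPM at stage 12, 58.1 and 18.3 CPM at stage 12.5 and 57.2 and 28.4 CPM at stage 13. kmt5a.S had 316 and 498 CPM at stage 11.5, 272 and 404 CPM at stage 12, 208 and 328 CPM at stage 12.5 and 182 and 214 CPM at stage 13. At stage 14 the replicates were closer, at 60.6 and 64.1 CPM for tet3.S and 150 and 166 CPM for kmt5a.S. Of the 23 members higher at stage 18 than at stage 11, replicate 1 was above replicate 2 in 17 at stage 11, 22 at stage 11.5 and 20 at each of stages 12, 12.5 and 13, and then in 10, 13, 17, 7 and 8 at stages 14, 15, 16, 17 and 18. Of the 13 members that fell, replicate 1 was below replicate 2 in 7 at stage 11 and 7 at stage 11.5. It was below in 11 at stage 12, 9 at stage 12.5, 12 at stage 13, and 8 or 9 at each later stage. The median log2 ratio of replicate 1 to replicate 2 over the falling members was -0.31, -0.29 and -0.29 at stages 12, 12.5 and 13. It was -0.066 and -0.008 at stages 11 and 11.5, and from -0.081 to -0.20 at the later stages. These orders were not counted over all models that rose or fell, and 37.0% of all models differed by replicate number. Whether the orders are particular to the enzymes was not tested.

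At stage 11 few of these enzymes were called between regions of the embryo. A single member was called in each comparison, 1.35% of the members. Over all models tested 3.14% were called between DMZ and VMZ explants (2.24% higher in DMZ), 3.21% between DMZ explants and caps (2.49% higher in DMZ) and 1.03% between VMZ explants and caps (0.313% lower in VMZ). At an unadjusted p under 0.05 the 3 comparisons gave 15, 7 and 5 of the 74 members. The share of all models at that threshold was not taken, so these counts have no background. hdac7.L, a class IIa deacetylase known in mammals for its role in blood vessels and muscle, had 91.2 and 44.6 CPM in DMZ explants, against 21.5 and 14.6 CPM in VMZ explants. The difference was 1.92 ± 0.38 on the log2 scale (adjusted p = 0.0129). VMZ explants were also below caps, which had 110 and 51.0 CPM (log2 -2.16 ± 0.39, adjusted p = 0.00946). The DMZ and cap libraries overlap and both VMZ libraries lie below all of them. Without DMZ replicate 1 the DMZ to VMZ difference was 1.30 (adjusted p = 0.162) and without VMZ replicate 2 it was not called either (0.187). Without cap replicate 1 the VMZ to cap difference was -1.50 (0.146), and without VMZ replicate 2 it was not called (0.118).

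kdm7a was the member called between DMZ explants and caps. kdm7a.L had 10.1 and 7.81 CPM in DMZ explants, against 5.15 and 4.09 CPM in caps (log2 0.97 ± 0.24, adjusted p = 0.036). kdm7a.S had 10 and 6.53 CPM in DMZ explants, against 3.16 and 3.80 CPM in caps (log2 1.27 ± 0.36, adjusted p = 0.0749; 0.0378 with the replicate block). VMZ explants lay between, with 7.54 and 6.21 CPM of kdm7a.L and 3.75 and 6.55 CPM of kdm7a.S. The kdm7a.L call was lost in 12 of the 24 fits that left out a library, with an adjusted p of up to 0.297. Caps were cut earlier, in larger lots and cultured longer than DMZ explants, so region, cutting stage and lot size cannot be told apart here.

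Of the 74 members the replicate block called 4 between DMZ and VMZ explants, 2 between DMZ and caps and 2 between VMZ and caps. Of all models it called 8.66%, 5.40% and 2.77%. DESeq2 called 2, 3 and 2 of the 74 members, against 8.50%, 5.94% and 3.33% of the models to which it gave an adjusted p. Each count is of 4 members or fewer, so the shares are not read as differing from those of all models. prmt1.L had 3039 and 2891 CPM in DMZ explants, against 2010 and 1776 CPM in VMZ explants (log2 0.65 ± 0.21, adjusted p = 0.113; 0.0131 with the block). prmt1.S had 3971 and 2940 CPM in DMZ explants, against 2739 and 2008 CPM in VMZ explants (adjusted p = 0.102; 0.0308 with the block). kdm3b.L had 48.0 and 58.8 CPM in DMZ explants and 68.2 and 102 CPM in VMZ explants (adjusted p = 0.135; 0.00544 with the block). setd5.L had 126 and 118 CPM in VMZ explants, against 82.9 and 84.1 CPM in caps (log2 0.55 ± 0.15, adjusted p = 0.111; 0.0339 with the block). The organizer, neural and epidermal marker sums differ between the same explants, at 991 to 1153 CPM of neural markers in DMZ, 626 to 639 CPM in VMZ and 378 to 410 CPM in cap libraries, and 546 to 1045, 1867 to 1957 and 2956 to 3887 CPM of epidermal markers. Their part in these differences was not tested.

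**Figure D4:**
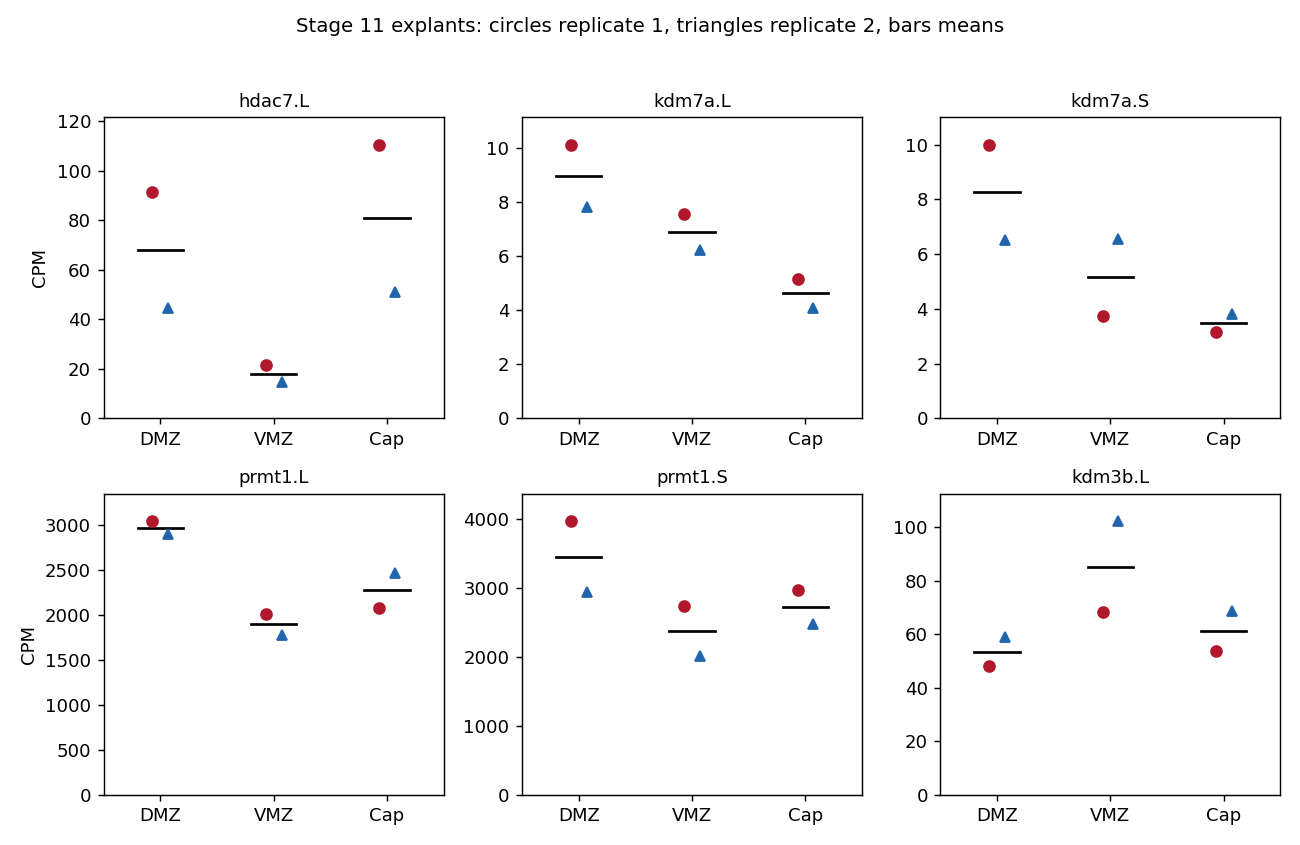
CPM of 6 members in the stage 11 explants (circles replicate 1, triangles replicate 2, bars means; axes start at 0). hdac7.L is low in both VMZ libraries, at 21.5 and 14.6 CPM, and kdm7a.L steps down from DMZ through VMZ to cap explants.

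The TET models and kmt5a, with the largest rises and falls over time, were not called between regions at stage 11 by edgeR. The median log2 difference of the 4 TET models was 1.315 between DMZ explants and caps and 0.48 between DMZ and VMZ explants. tet3.L had 12.3 and 3.46 CPM in DMZ explants, 5.97 and 3.94 CPM in VMZ explants and 3.48 and 1.48 CPM in caps, and tet3.S had 7.97 and 3.97, 4.40 and 6.24, and 4.35 and 3.80 CPM in the same order. tet2.L and tet2.S were near zero throughout, and tet2.S gave 31 and 0 counts in DMZ, 2 and 1 in VMZ and 2 and 0 in cap libraries. tet2.S was called by DESeq2 in DMZ against VMZ (adjusted p = 0.0134) and against caps (0.0279), with all DMZ counts in replicate 1. kmt5a.S averaged 521 CPM in DMZ explants, 562 CPM in VMZ explants and 535 CPM in caps, and its log2 difference between DMZ and VMZ had an interval of -0.59 to 0.37. dnmt1.L, ezh2.L and hdac1.S had intervals of -0.72 to 0.16, -0.05 to 0.64 and 0.03 to 0.54 in that comparison, none of them called.

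The L and S copies of a gene did not always move together. For each of the 21 genes with both copies, the log2 ratio of L to S counts was compared within libraries by limma. Of the 21 ratios 6 changed between stage 18 and stage 11, a smaller share than the 37.6% of all 5023 pairs tested. In this fit, without the replicate block, the copies of these genes were called apart no more often than those of other genes. With the block the share of all pairs was not taken. The ratio is of counts, without length correction, so only its change is read. The log2 ratio of setdb1 averaged 1.49 at stage 18 and 0.16 at stage 11, a difference of 1.33 ± 0.27 (adjusted p = 0.0014). In single libraries it was 1.61 and 1.37 at stage 18 and 0.14 and 0.18 at stage 11. That of kmt5a averaged -1.73 at stage 18 and -2.40 at stage 11 (difference 0.68 ± 0.16, adjusted p = 0.00434). kmt5c moved toward L by 0.72 ± 0.21 (adjusted p = 0.0131) and ezh2 by 0.81 ± 0.25 (adjusted p = 0.0188). hdac1 and kdm4a moved toward S, by -0.48 ± 0.10 (adjusted p = 0.00225) and -0.65 ± 0.18 (adjusted p = 0.0126). In all these pairs 1 copy was called and the other was not, or both fell by different amounts.

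Without stage 11 replicate 2, stage 18 replicate 1 or stage 18 replicate 2 the ratio changes of ezh2 (adjusted p = 0.127, 0.0661 and 0.0873), kmt5c (0.0701, 0.0673 and 0.0522) and kdm4a (0.117, 0.0549 and 0.0624) were no longer called, and that of kmt5a reached 0.05004 without stage 18 replicate 2. Those of setdb1 and hdac1 held without any single library. Over all 10 stages the ratio changed in 4 of the 21 genes, kmt5a, setdb1, hdac1 and kdm1a (limma adjusted p = 0.00174, 0.00315, 0.0135 and 0.0492). This share is also smaller than that of all pairs, at 25.7%. The kdm1a call was lost in 22 of the 24 fits that left out a library (adjusted p up to 0.19), and that of hdac1 without either stage 18 library (0.069 and 0.0738). The ratio of prmt1 was lower in replicate 1 than in replicate 2 at each DMZ stage, and its shift of -0.54 ± 0.24 toward S had an adjusted p of 0.0827, or 2.77e-06 once replicate number was a block. The L and S copies are close in sequence, and reads that fit both were divided between them by the authors' quantification, so the split between copies is less certain than their sum.

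**Figure D5:**
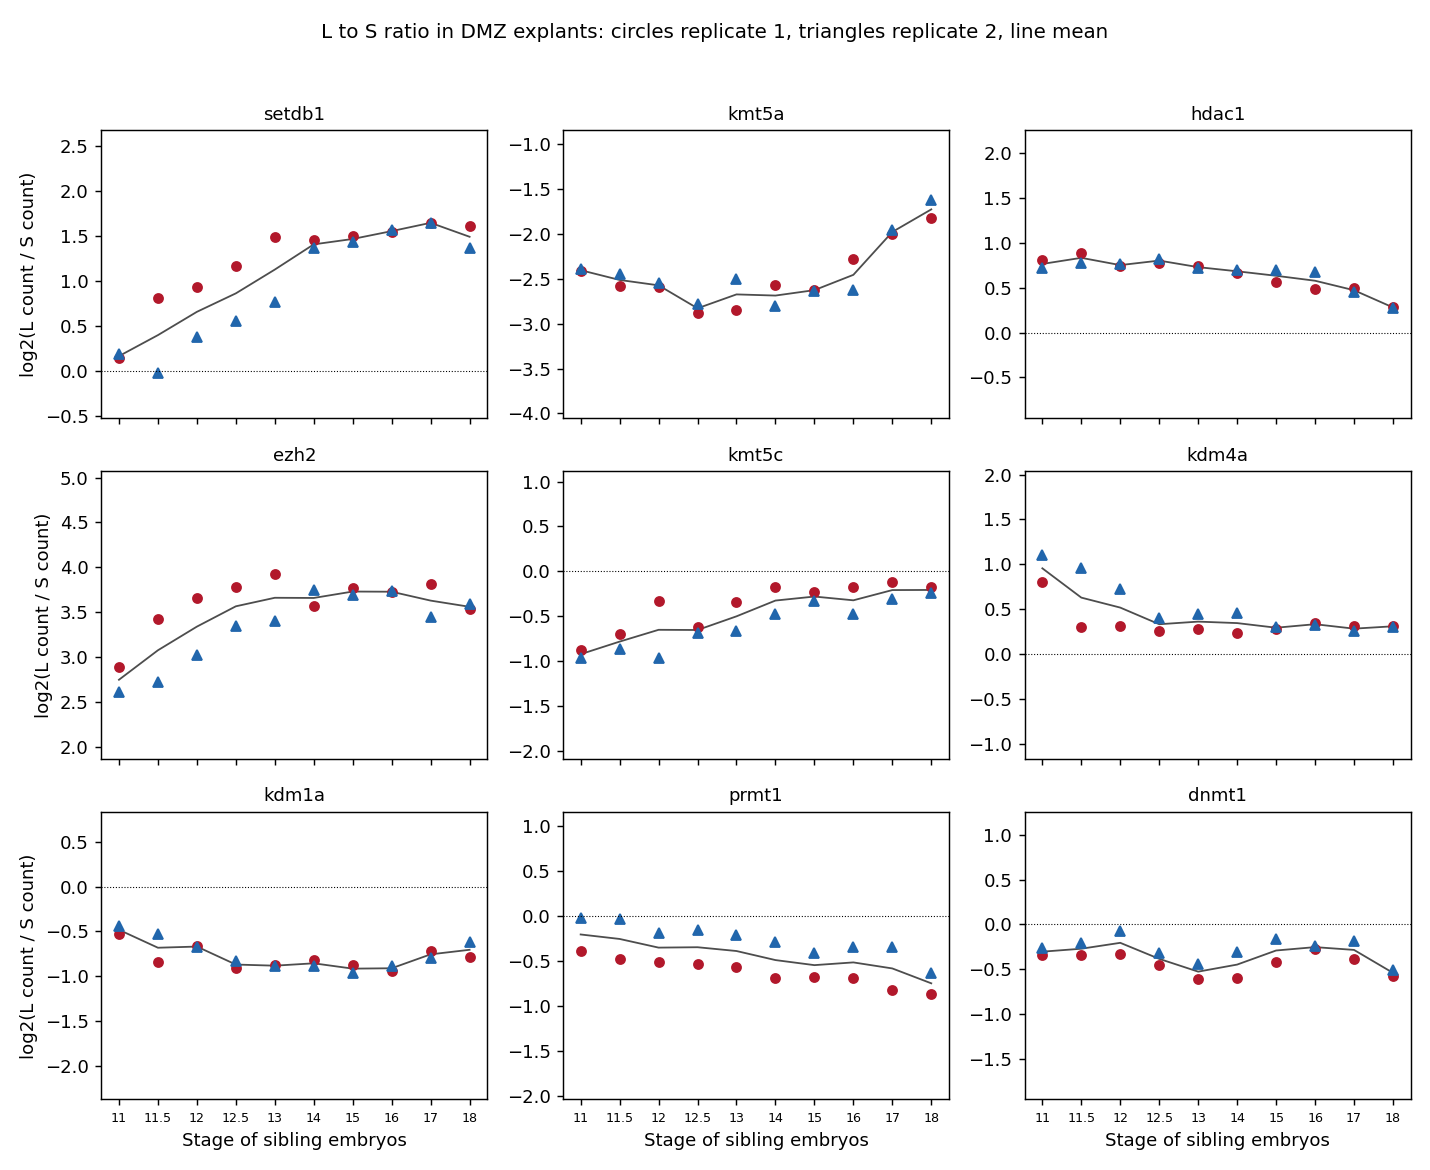
Log2 ratio of L to S counts in each DMZ library against stage for 9 genes (circles replicate 1, triangles replicate 2, lines group means; all panels span the same height on the log2 scale). setdb1 climbs, with means of 0.16 at stage 11 and 1.49 at stage 18, hdac1 and kdm4a drift down, and the prmt1 circles lie below the triangles at all stages.

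Partners and counter-players of these enzymes were read from lists chosen by symbol. Of 10 PRC2 partner models none was called between stages 18 and 11, 2 were called with the replicate block, and their median log2 fold change was 0.31. Among 27 PRC1 models 5 were higher and 4 lower, with ring1.L, a ubiquitin ligase of histone H2A, at 8.96 CPM at stage 18 and 1.49 CPM at stage 11 (log2 2.61 ± 0.34, adjusted p = 3.07e-05). The partners of the H3K4 methyltransferases went mostly down, with 7 of 13 lower and 2 higher and a median of -0.47. ash2l.S, a core subunit shared by these complexes, averaged 75.3 CPM at stage 18 and 138 CPM at stage 11 (log2 -0.87 ± 0.16, adjusted p = 0.000469), whereas men1.L, specific to the complexes of kmt2a and its nearest relative, averaged 28.5 CPM at stage 18 and 11.6 CPM at stage 11 (log2 1.29 ± 0.28, adjusted p = 0.00171).

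The corepressor subunits of deacetylase complexes also leaned down, with 10 of 31 lower and 4 higher. sap30.S, of the Sin3 complex, averaged 15.2 CPM at stage 18 and 69.5 CPM at stage 11 (log2 -2.19 ± 0.21, adjusted p = 2.95e-06), and rcor3.S, of the CoREST family that binds LSD1, 7.87 CPM at stage 18 and 1.021 CPM at stage 11 (log2 2.94 ± 0.37, adjusted p = 2.38e-05). Of 9 sirtuin models, the deacetylases that use NAD, 4 rose and 4 fell. sirt2.S averaged 2.95 CPM at stage 18 and 17.4 CPM at stage 11 (log2 -2.56 ± 0.27, adjusted p = 6.46e-06), and sirt5 parted by copy, with sirt5.S higher (log2 1.09 ± 0.35, adjusted p = 0.0225) and sirt5.L lower (log2 -1.80 ± 0.27, adjusted p = 0.000119). Acetyltransferases had 5 of 14 models higher and 2 lower, including crebbp.S at 90.6 CPM at stage 18 and 49.8 CPM at stage 11 (log2 0.86 ± 0.22, adjusted p = 0.00512). The other copy, crebbp.L, did not pass the edgeR test (adjusted p = 0.812).

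Other methyltransferases of H3K9, H3K36 and H4K20 had 6 of 16 models higher and 4 lower, with suv39h2.L at 41.7 CPM at stage 18 and 92.9 CPM at stage 11 (log2 -1.16 ± 0.25, adjusted p = 0.00192) and smyd2.L at 24.3 CPM at stage 18 and 10.8 CPM at stage 11 (log2 1.17 ± 0.17, adjusted p = 7.05e-05). The S copy, smyd2.S, did not pass the edgeR test (adjusted p = 0.841). Other arginine methyltransferases and demethylases had 1 of 12 higher and 1 lower. Readers of DNA methylation and enzymes of its removal, the list that holds uhrf1.S and tdg.S, had 5 of 20 higher and 7 lower. These counts stand against 20.9% of all models higher and 19.6% lower. Of the genes named in these lists, the call of sirt5.S was lost without stage 11 replicate 1, and those of the others held without any single library. Several of them had the smallest adjusted p of their list, so this says nothing of the other calls in the counts. Among the H3K4 partners, for example, the calls of dpy30.S, wdr5.S and ash2l.L were each lost without some single library.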

How the data were processed

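RNA was measured in 24 libraries, 2 for each of 12 groups. The authors deposited whole-number counts per gene model, made with Trim Galore and kallisto per the submitters' processing notes, without versions or settings. No label or header names the genome build. Their second table pairs gene models with symbols and holds, as deposited, regularised log2 values per group, cluster numbers and adjusted p-values. Only its symbols and p-values were used.

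Models with at least 10 counts, scaled to the median library, in 2 libraries or more were kept (edgeR filterByExpr) and scaled by the trimmed mean of M-values. edgeR 4.0.16 (R 4.3.3, robust quasi-likelihood fit) gave log2 fold changes and Benjamini-Hochberg adjusted p-values over 31349 models. The fit had 12 groups, 12 residual degrees of freedom and a biological coefficient of variation of 0.33. Standard errors and 95% intervals were derived from each fold change and its test statistic. They are approximate, most of all for counts near zero such as those of tet2. Ratios of L to S counts (0.5 added to each) were tested with limma 3.58.1 over 5023 pairs. Scripts were tested on simulated data. DESeq2 1.42.0, other scalings and filters, a replicate block and leaving out each library were alternatives. Replicate numbers come from the labels. Same-numbered libraries deviated from their group means together in 66 of 66 pairs of groups (correlations 0.24 to 0.67), so the numbers pair the samples. The main fit leaves this pairing out, so a member that did not pass there may pass with the block. The block added 12 members between stages 18 and 11 and 12 between stages 14 and 11. It added 6 between stages 18 and 14 and 16 for any change.

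The members, enzyme families and gene lists were chosen with earlier results of these data known. Named were the 10 largest rises and falls per comparison with at least 2 CPM, the 12 smallest p-values for any change, fixed family anchors and called ratios, and the other members to complete their families. Genes named from the other lists were picked outside this rule.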

Additional observations from a re-analysis of the deposited data

How the results depend on the processing

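The direction of no called member reversed under any alternative run. Over single members and alternatives, 15489 values kept their side of the threshold, 346 lost a call and 201 gained one. With other scalings, no filter, a filter of at least 1 CPM in 4 libraries, the groups compared alone or L and S counts summed, the counts for stages 18 against 11, 14 against 11, 18 against 14 and any change stayed within 1.5 times those reported. With the replicate block, 16 members were called between stages 18 and 14 and 42 for any change, for which DESeq2 called 43. In DMZ against VMZ explants the block gave 4 members, DESeq2 2 and the groups compared alone 0. In DMZ explants against caps these were 2, 3 and 0, and in VMZ explants against caps 2, 2 and 0. The block gave 9 ratios for any change. The share of all pairs called with the block was not taken, so this count has no background. In every comparison the block and DESeq2 also called all members called without them, so the block ended no call. Leaving out 1 library gave 23 to 39 members between stages 18 and 11, 10 to 29 between stages 14 and 11, 0 to 10 between stages 18 and 14 and 17 to 27 for any change. It gave 0 to 4 in DMZ against VMZ explants, 0 to 2 in DMZ explants against caps and 0 to 2 in VMZ explants against caps, and 2 to 7 and 2 to 6 ratios between stages 18 and 11 and for any change. With a library left out its group has 1 library, which is assumed to vary like the others, and the cause of these losses was not tested. The share of all models called in these fits was not taken, so their counts have no background. The depth of stage 11 DMZ replicate 2 (7.38 M counts) limits members under about 1 CPM there, such as tet2.L and tet2.S.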

Other observations

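Members differed by replicate number about as often as all models did, so this is not particular to these enzymes. Over the 12 groups 28 of the 74 members differed between replicates 2 and 1 in the fit with a replicate block (edgeR adjusted p under 0.05), 13 of them higher in replicate 2 and 15 higher in replicate 1, against 37.0% of all models tested. setd6.L was lower in replicate 2 in all 12 groups, with a log2 difference of -1.097 (adjusted p = 3.13e-08), and hdac2.L, hdac6.L and kmt5b.S were also lower in all 12 groups, with log2 differences of -0.78, -0.57 and -0.46. hdac7.S (log2 1.68), setd9.L (0.42) and kdm3b.L (0.31) were higher in replicate 2 in all 12 groups. The labels do not say what the replicate number stands for.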
